A study of Homo sapiens with 14 samples.

Results

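Small ribosomal subunit assembly factors are the proteins that build the 40S subunit of the ribosome around its 18S rRNA but do not stay in the finished subunit. The set described here holds 44 such genes, picked by name for their known role and not by their values on these arrays, although earlier results of the series were known when they were picked. Of the 44 genes, 43 could be measured, among 19775 genes in all. NOP56 could not, because its probe sets also name other genes. The arrays were HG-U133 Plus 2.0 oligonucleotide arrays, on which a gene is read by 1 or more probe sets, and each gene was taken by its brightest probe set that names it alone.

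The samples were 7 established T-cell acute lymphoblastic leukemia (T-ALL) cell lines, named Jurkat, ALL-SIL, CCRF-CEM, TALL-1, Molt-4, P12-ICHIKAWA and HPB-ALL. Each line was cultured for 6 h with AS605240, an inhibitor of phosphoinositide 3-kinase (PI3K), or with vehicle, which gave 7 treated and 7 vehicle arrays. Every line received AS605240 at its own IC50, the concentration of half-maximal effect, so line and concentration cannot be told apart. Each line was on 1 array per treatment, so the spread between lines holds array noise as well.

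On each array between 8 and 11 of 11 T-cell markers had a signal over 50, against 0 to 3 of 4 B-cell, 1 of 5 myeloid and 2 of 7 epithelial or fibroblast markers. The median signal of a gene lay between 32.2 and 41.0 on the 14 arrays. The vehicle arrays of P12-ICHIKAWA and TALL-1 correlated at r = 0.994 over all genes, while the 20 remaining pairs lay at 0.908 to 0.953. Whether these lines are independent of each other was not tested, so counts over 7 lines may hold fewer independent lines. They were also averaged as 1 line. In RNA from whole cultures, fewer cells with a transcript and less of it per cell cannot be told apart.

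The small subunit is assembled in the nucleolus on the nascent pre-rRNA. The t-UTP and UTP-B subcomplexes, the U3 snoRNP and the MPP10 complex join in turn to form the small subunit (SSU) processome, in which the pre-rRNA is folded, modified and cleaved. The resulting pre-40S particle is then exported and matured in the cytoplasm, where the 3′ end of the 18S rRNA is made. In growing cells the genes of this pathway are known targets of Myc, which binds the sequence CACGTG, called an E-box.

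Promoter sequences from RefSeq (GRCh38.p14), each from 250 bases before to 50 bases after the transcription start, were at hand for 40 of the 44 genes. Those of 4 genes are shown because these genes were among those with the largest decreases and their CACGTG lies whole within the stretch shown. LTV1 and BYSL were also among the largest decreases. Their CACGTG begins at transcribed base 29 and runs past the end of that stretch, so they are not shown. Each run goes from 120 bases before to 30 bases after the start, 5′ to 3′ on the strand of the gene, with CACGTG in capitals. PNO1 lies at chr2:68157768-68157917 (plus strand), RRP9 at chr3:51941875-51942024 (minus strand), WDR43 at chr2:28894547-28894696 (plus strand) and UTP18 at chr17:51260426-51260575 (plus strand).
PNO1: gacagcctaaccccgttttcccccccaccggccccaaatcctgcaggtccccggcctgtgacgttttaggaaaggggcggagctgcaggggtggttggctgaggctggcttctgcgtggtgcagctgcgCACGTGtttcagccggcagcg
RRP9: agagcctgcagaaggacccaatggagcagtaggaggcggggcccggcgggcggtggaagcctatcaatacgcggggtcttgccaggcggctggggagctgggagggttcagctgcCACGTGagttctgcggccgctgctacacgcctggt
WDR43: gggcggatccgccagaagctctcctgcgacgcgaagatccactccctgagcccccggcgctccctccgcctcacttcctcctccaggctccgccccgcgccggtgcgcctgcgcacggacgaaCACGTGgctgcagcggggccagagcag
UTP18: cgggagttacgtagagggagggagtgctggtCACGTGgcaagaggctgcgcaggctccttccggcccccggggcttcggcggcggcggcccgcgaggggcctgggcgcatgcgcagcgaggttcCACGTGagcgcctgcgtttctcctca

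Counting the first transcribed base as 1, the motif began at position 10 in PNO1, at -5 in RRP9, at 4 in WDR43 and at -89 and 5 in UTP18. In all, 17 of the 40 genes (42.5%) had CACGTG in a promoter, against 13.2% of the 7643 genes with a signal over 50. The motif was in 7.26% of 35116 RefSeq promoters of the same length, a share per promoter and not per gene. It began within 50 bases of the start in 16 of the 17, which were BYSL, FBL, IMP4, LTV1, NAT10, NOL6, NOP14, PNO1, PWP2, RCL1, RRP9, UTP18, UTP20, UTP4, WDR43 and WDR46, and far from it in UTP14A. Over all promoters, 2.82% held it within 50 bases. No CACGTG was found in this window for EMG1 or UTP15. Of 4 other motifs searched on both strands, CCGGAAG was in a promoter of 37.5% of these genes (10.3% of all promoters, 25.4% of genes with a signal over 50). By the same shares, GGGCGG was in 82.5% (45.0% and 77.4%), CCAAT in 42.5% (34.6% and 44.0%) and TATAAA in 7.5% (11.5% and 7.71%). A match of letters describes the window and shows no binding.

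With AS605240, 38 of the 43 assembly factor genes were lower than with vehicle, and 5 did not pass the test in either direction. The test was a paired limma fit on log2(signal + 16), in which each line is its own block, with Benjamini-Hochberg adjusted p over all 19775 genes and a threshold of 0.05. The 38 genes were 88.4% of those measured, where 7.03% of all genes were lower and 11.8% were higher. Of the 43, 0 were higher, at an adjusted or an unadjusted p under 0.05. The median change was -0.37 on the log2 scale, with a range of -1.08 to 0.15, beside a median of 0.013 over all genes. The genes that did not pass were TBL3, FBL, KRR1, RRP12 and NOB1.

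The decreases were shared between the lines. Of the 43 genes, 35 (81.4%) were lower in all 7 lines, against 6.11% of all genes. Of 301 changes, 1 for each gene and line, 19 (6.31%) were above 0. Of all genes, 42.9% (HPB-ALL) to 49.7% (Jurkat) were below vehicle in a line. Most decreases were smaller than 1.5-fold, the study's threshold for a fold change, and 8 genes passed it as well as the test, all of them lower, where 0.506% of all genes passed both in this direction and 1.07% in the other. The 8 were PNO1, EMG1, RRP9, UTP15, LTV1, BYSL, WDR43 and UTP18. Poly(A) spike-in controls, RNAs added to each sample, were higher in 7 of 7 lines with AS605240, by 0.22 ± 0.17 (SD) on the log2 scale. No fit was scaled to these controls, so their part in the result was not tested. The array medians themselves changed by 0.053 on average. With each array centred on its median, 38 of these genes were lower, where 10.9% of all genes then were. With P12-ICHIKAWA and TALL-1 averaged as 1 line, 38 genes were lower and 8 passed both thresholds, where 5.83% of all genes were lower. Without the block for cell line, 0 of the 43 genes were lower in limma after adjustment (21 at an unadjusted p under 0.05). Of all genes, 0.0303% were lower in that fit. The vehicle levels of the 43 genes had a median SD of 0.35 between lines.

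**Figure D1:**
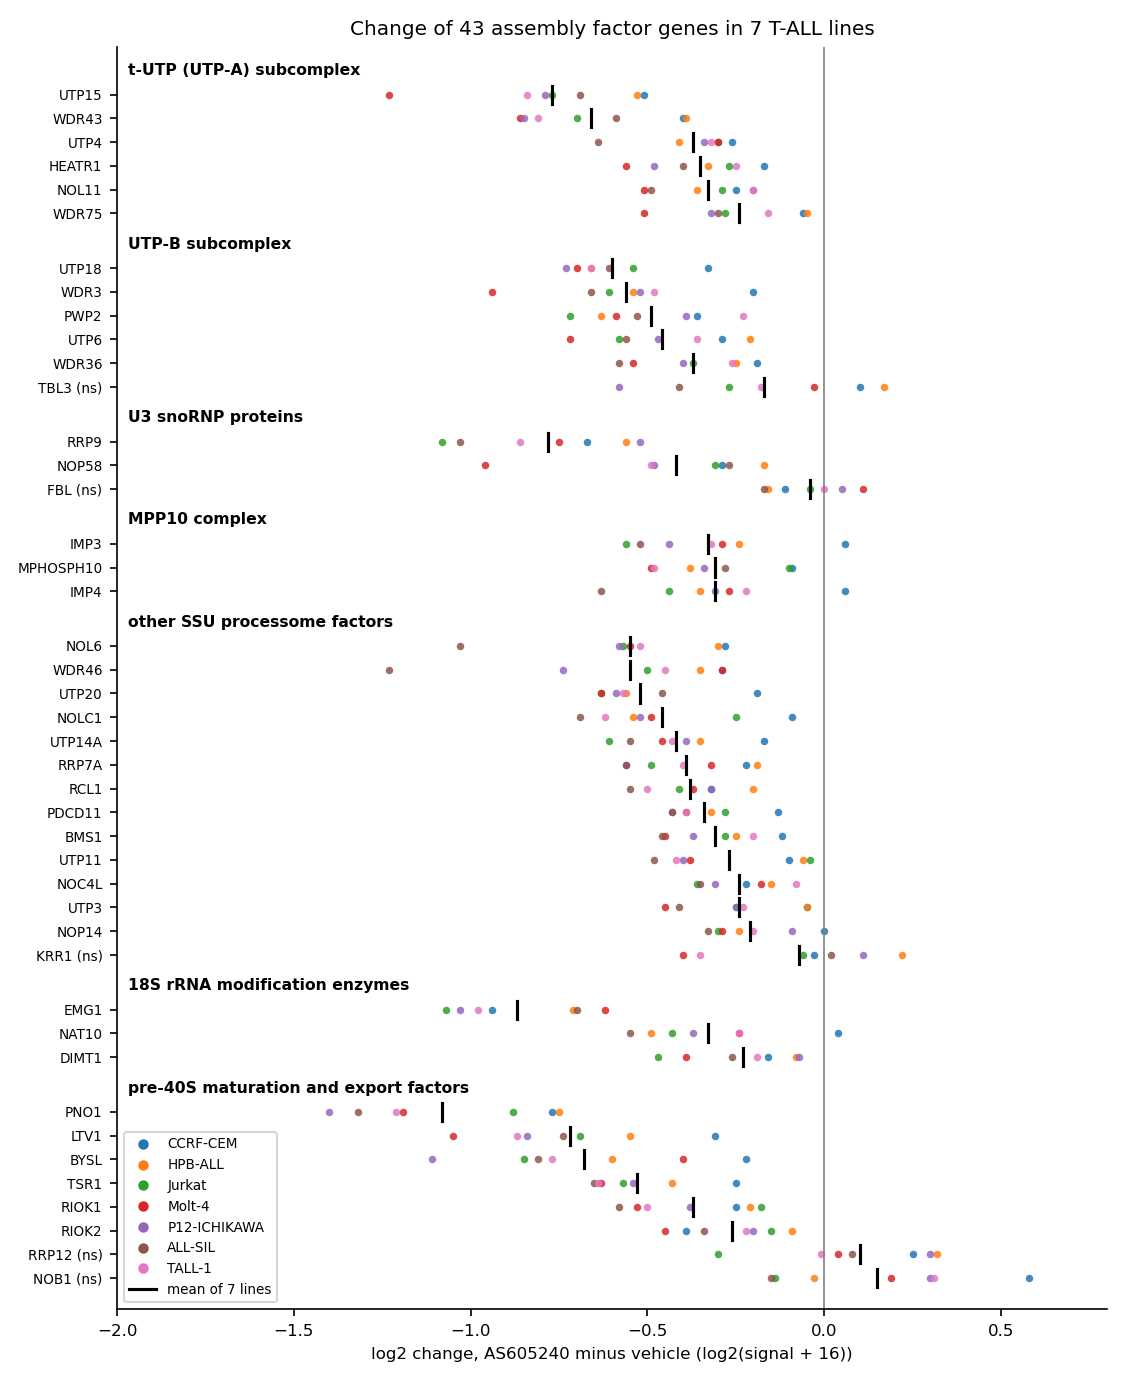
Change with AS605240 against vehicle for the 43 assembly factor genes, grouped by role, on the scale of log2(signal + 16). Each point is 1 of 7 cell lines, the black bar is their mean and "ns" marks the 5 genes that did not pass the test. Means run from -1.08 for PNO1 to 0.15 for NOB1, and 35 genes have all 7 points below 0.

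The pre-40S maturation and export factors, which act on the particle after it has left the SSU processome, held the largest decrease and also the only 2 mean changes above 0. Of 8 genes 6 were lower, with a median change of -0.45. PNO1, a partner of the endonuclease NOB1 on the pre-18S rRNA, had a lowest, median and highest signal of 172, 355 and 552 with AS605240, against 480, 613 and 1030 with vehicle. The 2 groups overlapped, because the lines differed in level, but each line was below its own vehicle array. PNO1 was 2.11-fold lower (log2 change -1.08, SE 0.085, adjusted p = 8.34e-06), and its decrease was largest in P12-ICHIKAWA, at -1.40, and smallest in HPB-ALL, at -0.75.

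LTV1, which in yeast holds the region of the subunit head where late ribosomal proteins join, was the only gene of the 43 whose groups did not overlap, a separation seen in 0.0708% of all genes. Its signals were 117, 182 and 259 with AS605240, against 260, 301 and 428 with vehicle, so that the highest treated line, Jurkat, lay just under the lowest vehicle line, Molt-4. LTV1 was 1.65-fold lower (log2 change -0.72, SE 0.079, adjusted p = 5.36e-05). BYSL, an early binding factor that is released in the cytoplasm, had 166, 336 and 533 with AS605240 and 367, 508 and 705 with vehicle. These groups overlapped, and BYSL was 1.60-fold lower (log2 change -0.68, SE 0.091, adjusted p = 0.000206), with changes from -1.11 in P12-ICHIKAWA to -0.22 in CCRF-CEM. TSR1, which resembles a GTPase, fell by 0.53 on the log2 scale, and the kinases RIOK1 and RIOK2 fell by 0.37 and 0.26, each in 7 of 7 lines. The other probe set of RIOK2 was at 0.16, and by the mean of its probe sets RIOK2 did not pass (-0.05, adjusted p = 0.569).

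NOB1 is the endonuclease that makes the 3′ end of the 18S rRNA. Its signals were 223, 529 and 838 with AS605240 and 228, 555 and 631 with vehicle. The groups overlapped over most of their range, and the log2 change of 0.15 (95% interval -0.03 to 0.34, adjusted p = 0.266) was above 0 in 4 of 7 lines, most in CCRF-CEM at 0.58. RRP12, a factor of nuclear export, had 321, 352 and 623 with AS605240 and 273, 379 and 604 with vehicle, a log2 change of 0.10 (95% interval -0.06 to 0.26, adjusted p = 0.448). It was above 0 in 5 of 7 lines, and its probe sets differed in their change, as given with the other probe sets.

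All 3 enzymes that modify the 18S rRNA were lower. EMG1 methylates a pseudouridine of the 18S rRNA. Its signals were 139, 354 and 633 with AS605240, against 301, 586 and 1320 with vehicle. It had the widest spread of vehicle levels of the 43 genes (SD 0.80 on the log2 scale), so the groups overlapped broadly, but its decrease was similar in all of them, from -1.07 in Jurkat to -0.62 in Molt-4. EMG1 was 1.82-fold lower (log2 change -0.87, SE 0.069, adjusted p = 8.4e-06). NAT10, which acetylates cytidines, fell by 0.33 (adjusted p = 0.00595), in 6 of 7 lines. DIMT1, which dimethylates a pair of adenosines near the 3′ end, had the smallest decrease of the 3, -0.23 (adjusted p = 0.0204).

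**Figure D2:**
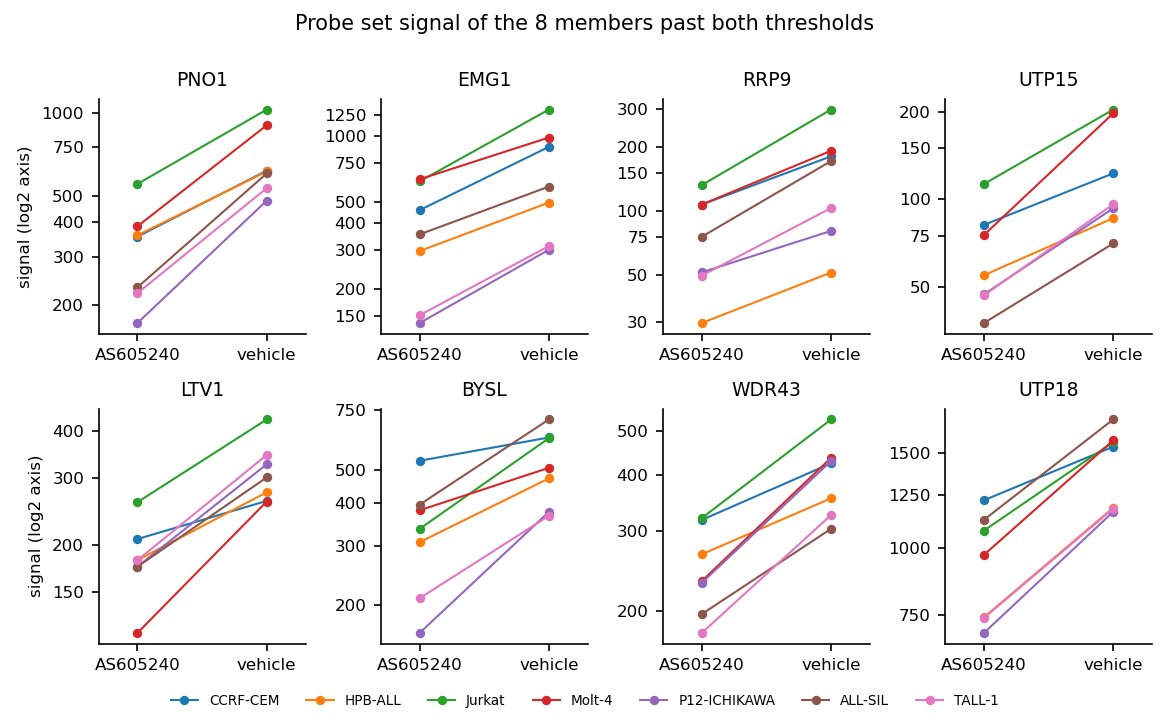
Probe set signal of the 8 genes past both thresholds, with AS605240 on the left and vehicle on the right of each panel and a log2 axis. Each line joins the 2 arrays of 1 cell line. Every line goes up toward vehicle, and for LTV1 alone the treated arrays (117 to 259) lie wholly below the vehicle arrays (260 to 428).

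The t-UTP subcomplex binds the pre-rRNA first and is also needed for its transcription in human cells. All 6 of its genes were lower in every line, with a median change of -0.36. UTP15 had signals of 37.5, 54.8 and 113 with AS605240, against 70.5, 96.2 and 204 with vehicle. It was 1.70-fold lower (log2 change -0.77, SE 0.079, adjusted p = 3.92e-05), with its largest change, -1.23, in Molt-4. WDR43, a WD-repeat protein of the subcomplex, had 179, 233 and 321 with AS605240, against 304, 424 and 530 with vehicle. Only the 2 brightest treated arrays, of Jurkat and CCRF-CEM, reached into the vehicle range, and WDR43 was 1.58-fold lower (log2 change -0.66, SE 0.072, adjusted p = 5.39e-05). UTP4, HEATR1 and NOL11 fell by 0.37, 0.35 and 0.33, and WDR75 had the smallest decrease, -0.24 (adjusted p = 0.0201).

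The UTP-B subcomplex joins after t-UTP and contacts the U3 snoRNA. Of its 6 genes 5 were lower in every line, with a median of -0.47 over the 6. UTP18, which in yeast brings the nuclear exosome to the cleaved spacer, had signals of 694, 969 and 1224 with AS605240, against 1165, 1539 and 1729 with vehicle. It was 1.52-fold lower (log2 change -0.60, SE 0.062, adjusted p = 3.51e-05), and its highest treated line was CCRF-CEM. WDR3, PWP2, UTP6 and WDR36 fell by 0.56, 0.49, 0.46 and 0.37, though PWP2 did not pass by the mean of its probe sets (-0.08, adjusted p = 0.401). TBL3, also a WD-repeat protein, had 66.4, 134 and 232 with AS605240 and 57.4, 183 and 216 with vehicle, a log2 change of -0.17 (95% interval -0.36 to 0.01, adjusted p = 0.199) that was below 0 in 5 of 7 lines.

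The U3 snoRNP pairs with the pre-rRNA and guides its folding and first cleavages. RRP9, the protein found in the U3 snoRNP but not in other box C/D snoRNPs, had signals of 29.8, 75.6 and 132 with AS605240, against 51.4, 171 and 298 with vehicle. It was 1.72-fold lower (log2 change -0.78, SE 0.076, adjusted p = 2.64e-05), from -1.08 in Jurkat to -0.52 in P12-ICHIKAWA. The other proteins are shared by all box C/D snoRNPs. NOP58 fell by 0.42 (adjusted p = 0.00271) in 7 of 7 lines. FBL, the methyltransferase of these particles, had 2806, 3368 and 3526 with AS605240 and 3140, 3406 and 3639 with vehicle, a log2 change of -0.04 with a 95% interval of -0.17 to 0.08 (adjusted p = 0.685). Its vehicle level differed least between lines of the 43 genes (SD 0.08), and its promoter held CACGTG at position 7.

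The MPP10 complex, of MPHOSPH10, IMP3 and IMP4, stabilises the pairing of U3 with the pre-rRNA. All 3 genes were lower, and their changes lay close together at -0.31, -0.33 and -0.31 (adjusted p = 0.00436, 0.00647 and 0.00933). MPHOSPH10 was lower in every line. IMP3 and IMP4 were lower in 6 of 7 lines and at 0.06 in CCRF-CEM. Together with NAT10, also above 0 in CCRF-CEM alone, at 0.04, these were the only genes called lower that were not lower in all lines.

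The remaining 14 SSU processome factors include the GTPase BMS1 and its partner RCL1, NOL6 and RRP7A of the UTP-C subcomplex, and the large scaffold protein UTP20. Of them 13 were lower in every line, with a median change of -0.36, and none reached 1.5-fold. The largest decreases were those of NOL6 and WDR46, both -0.55 (adjusted p = 0.000403 and 0.00159). WDR46, a WD-repeat scaffold of the particle, also had the widest range of change between lines, 0.94, from -1.23 in ALL-SIL to -0.29 in Molt-4. UTP20 fell by 0.52 and NOLC1, a chaperone of snoRNPs, by 0.46. NOP14 had the smallest decrease of the 13, at -0.21 (adjusted p = 0.0249). KRR1, an RNA-binding protein with a KH domain, had signals of 400, 503 and 596 with AS605240 and 486, 514 and 615 with vehicle, a log2 change of -0.07 (95% interval -0.24 to 0.10, adjusted p = 0.624) that was above 0 in 3 lines.

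The size of the decrease differed between the lines. The median change of the 43 genes was -0.20 in CCRF-CEM, -0.32 in HPB-ALL, -0.41 in Jurkat, -0.46 in Molt-4, -0.40 in P12-ICHIKAWA, -0.55 in ALL-SIL and -0.39 in TALL-1, a mean of -0.39 with an SD of 0.11 between lines. Over all genes the medians of the lines lay between 0.001 and 0.04. ALL-SIL had 15 of the 43 genes more than 1.5-fold lower, Molt-4 13 and CCRF-CEM 3, beside 0.956% to 2.99% of all genes in the 7 lines. By signed change, CCRF-CEM was the highest of the 7 lines for 22 genes and the lowest for none, whereas ALL-SIL was the lowest for 16 genes and Molt-4 for 14. How often each line was the highest or lowest in change over all genes was not counted. Jurkat was the only line with all 43 genes below vehicle, where 49.7% of all genes were. CCRF-CEM also had the lowest IC50 of the 7 lines in the paper, and so received the lowest concentration of AS605240. ALL-SIL and Jurkat had the same IC50 there, with medians of -0.55 and -0.41. P12-ICHIKAWA had the highest IC50, with a median of -0.40. Whether the change follows the concentration was not tested. With 1 pair of arrays per line, a difference between lines cannot be tested, nor told apart from concentration.

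CCRF-CEM had 6 of the 19 changes above 0, in TBL3, IMP3, IMP4, NAT10, NOB1 and RRP12. EMG1 was an exception to the small changes of this line, at -0.94 in CCRF-CEM beside a mean of -0.87. Over the 43 genes, the changes of any 2 lines correlated at r = 0.50 to 0.86 (median 0.70 over 21 pairs), the highest between P12-ICHIKAWA and TALL-1, as a description over genes that are not independent.

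**Figure D3:**
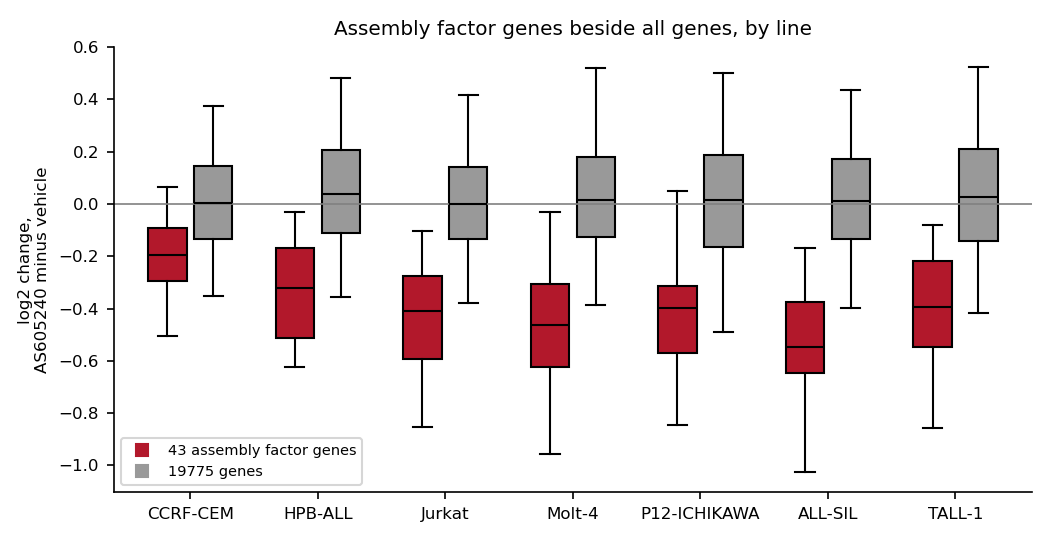
Log2 change with AS605240 against vehicle in each of the 7 cell lines, for the 43 assembly factor genes (red, left) and all 19775 genes (grey, right). Boxes show the median and quartiles and whiskers the 5th and 95th percentiles. The red medians run from -0.20 in CCRF-CEM to -0.55 in ALL-SIL and the grey ones from 0.001 to 0.04.

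The levels with vehicle also differed between the lines in a common way. Among the vehicle arrays Jurkat had the highest signal for 30 of the 43 genes (69.8%), against 20.2% of the 7205 genes at least as bright as the dimmest of the 43 with vehicle. Jurkat was also highest for 14 of 30 large subunit assembly factors, 14 of 28 other small subunit factors and 7 of 21 small subunit ribosomal proteins. In the vehicle arrays the median assembly factor gene was 0.41 above its own mean over the lines in Jurkat, on the log2 scale, 0.14 above in Molt-4 and 0.13 in CCRF-CEM, and at -0.06 in ALL-SIL, -0.14 in TALL-1, -0.16 in HPB-ALL and -0.19 in P12-ICHIKAWA. With AS605240 Jurkat was highest for 22 genes and CCRF-CEM for 14. With vehicle CCRF-CEM had been highest for 2 of the 43 genes and for 13.8% of all genes. The shares of all genes with AS605240 were not counted. The SD of the vehicle levels between lines had a median of 0.35 over the 43 genes and 0.36 over the genes at least as bright. The SD of the change had a median of 0.17 in both, so their spread in level and in response was close to that of other genes as bright.

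Genes of neighbouring steps were compared by the same test. Of 28 other small subunit factors measured, 14 were lower and 2 were higher, with a median change of -0.22. MYBBP1A, a nucleolar protein that binds Myb, was at -0.78, and BUD23, a methyltransferase of the 18S rRNA, at -0.59 (adjusted p = 2.1e-05 and 3.27e-05). The 2 higher genes were TSR2, a chaperone that delivers the ribosomal protein RPS26, at 0.39 in 7 of 7 lines (adjusted p = 0.000299), and RPS19BP1 at 0.28 (adjusted p = 0.00869). They were named after their values were seen. Of 30 large subunit assembly factors measured, 22 were lower and none was higher, with a median of -0.35, and the smallest p-values were those of RPF2, at -1.02, and PAK1IP1, at -0.97 (adjusted p = 3.09e-06 and 9.19e-06).

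The ribosomal proteins of the small subunit, which the assembly factors place on the rRNA, did not pass the test in either direction. Of 21 genes measured, 0 were lower and 0 higher in limma (0 at an unadjusted p under 0.05), with a median change of 0.014 and a range of -0.02 to 0.13. The other genes of this list had no probe set that names them alone. The median vehicle level of these genes was 12.82 on the log2 scale, against 8.73 for the assembly factor genes, values of different probe sets that do not compare transcript amounts. Whether probe sets with signals this high register a change in transcript as fully as dimmer ones was not tested. In the promoters, CACGTG was in 13 of 30 large subunit factor genes and in 2 of 25 ribosomal protein genes, and CCGGAAG in 14 of 30 and 9 of 25. Among the assembly factor genes, the 17 with the motif had a median change of -0.52 and 16 were lower, and the 22 without it had a median of -0.33 and 19 were lower. The medians with and without each of the other motifs were -0.49 and -0.33 for CCGGAAG, -0.39 and -0.27 for GGGCGG, -0.52 and -0.37 for TATAAA (in 3 genes) and -0.37 and -0.37 for CCAAT. A lower median in the genes with the motif was thus seen for 3 of these 4 as well.

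**Figure D4:**
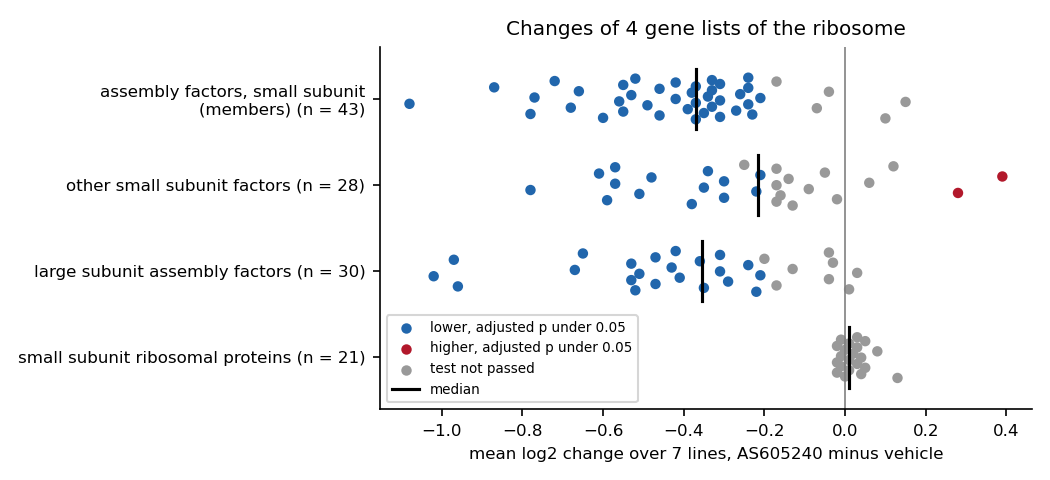
Mean log2 change over 7 lines, AS605240 minus vehicle, for each gene of 4 lists, with blue for lower, red for higher and grey for not passing the test, and a bar at the median. The medians are -0.37 for the 43 assembly factor genes, -0.22 for 28 other small subunit factors, -0.35 for 30 large subunit factors and 0.014 for 21 ribosomal proteins.

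Of the 43 genes, 39 had a signal over 50 on all 14 arrays and all 43 had it on at least 7. For 23 genes the array held further probe sets, 44 in all, of which 20 were lower and none was higher when p was adjusted over 54613 probe sets (4.99% lower). Of the 22 further probe sets that exceeded a signal of 50 on 7 or more arrays, 14 were lower. The 4.99% includes dim probe sets, and the share over bright ones alone was not counted. The 3 probe sets of PNO1 were at -1.08, -0.58 and -0.53, and those of NOLC1 at -0.46, -0.58 and -0.54, so these genes were lower by each of them but by different amounts.

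Some genes gave different answers by different probe sets. RRP12, not passing by its brightest probe set, was at 0.10 and 0.09 by its 2 brightest (adjusted p = 0.497 and 0.54) but at -0.77 by the third, in 7 of 7 lines (adjusted p = 1.9e-05). TSR1 was at -0.53 and -0.56 by 2 probe sets and at -0.04 and -0.11 by the other two. RIOK2 was at -0.26 by its brightest probe set and at 0.16 by the other, and PWP2 was at -0.49, 0.17 and 0.07. The 6 probe sets of KRR1 lay between -0.12 and 0.16. Which transcripts each probe set reads was not analysed here.

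**Figure D5:**
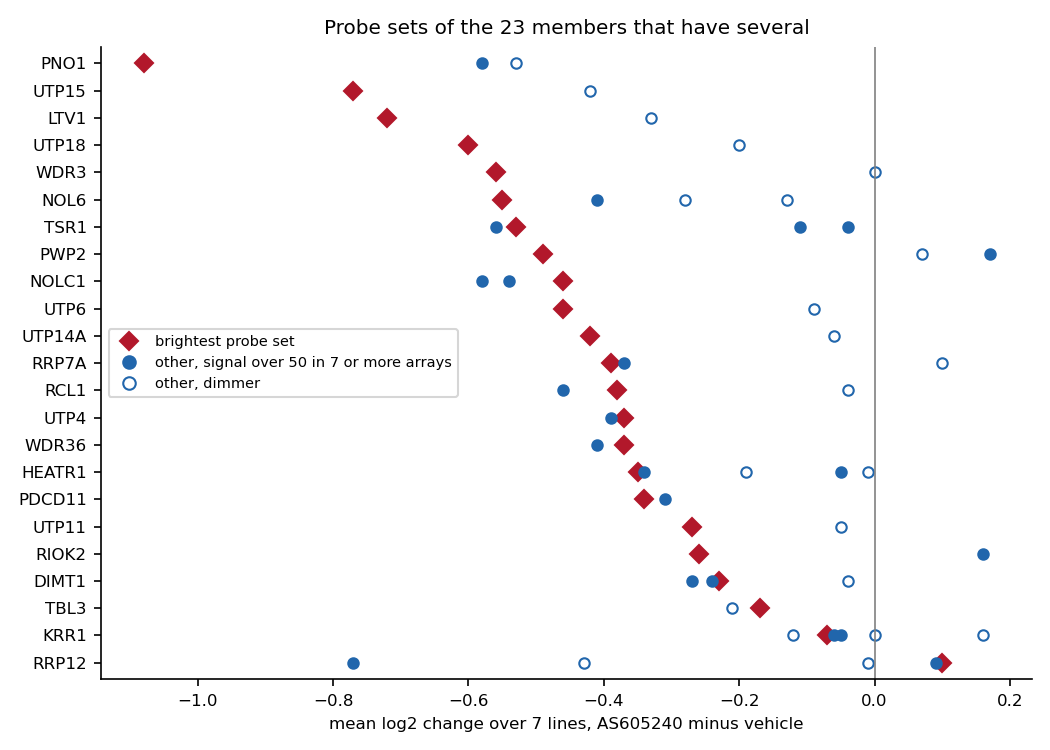
Mean log2 change over 7 lines, AS605240 minus vehicle, of each probe set of the 23 genes that have several. Diamonds are the brightest probe sets, filled circles the others that exceed a signal of 50 on 7 or more arrays and open circles dimmer ones. RRP12 spans 0.10 to -0.77, and the probe sets of PNO1 and NOLC1 all lie between -1.08 and -0.46.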

How the data were processed

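RNA of 7 T-ALL lines, each cultured for 6 h with AS605240 or vehicle, was hybridised to 14 arrays. The values the authors deposited are linear signal intensities per probe set, summarised with iterPLIER by their methods. The submitters' processing notes name PLIER and Affymetrix Expression Console 1.3.1.187. Normalization between arrays was not given in the sources used here. Of 54675 probe sets, 41091 name a single gene, 1801 several, 11721 none and 62 are controls. Symbols of 41037 were updated by gene ID.

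Here 16 was added, log2 taken, and each gene represented by its single-gene probe set with the highest mean. The paired test used limma 3.58.1 in R 4.3.3 (lmFit, eBayes, cell line as block, as in the study's methods), adjusted over 19775 genes. Deviations of a line's 2 arrays from the treatment means correlated at 0.88 to 0.95. The offset understates changes of dim genes. On simulated data with 7 pairs, 44 of 50 genes lowered by 0.5 and 50 of 50 lowered by 1 (log2) were called, as were 11 of 19575 unchanged genes. The changed genes were drawn only from those with a mean log2 level over 7. The counts therefore do not describe dimmer genes, among them UTP15, UTP20, RRP9, NOL6 and RCL1. The simulation held fewer changed genes than were called in the real data (1390 lower and 2339 higher), so its shares do not carry over directly.

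Members, comparison lists and motifs were chosen with earlier results of these data known. Named genes were those past both thresholds, those not passing, the largest and smallest change of each role group, the widest range between lines and, of other lists, the 2 smallest p-values. Others were added for description, and the brightest and dimmest gene were not named, since levels of different probe sets do not compare. Alternatives were other offsets, normalizations, probe set rules and filters, no block, and leaving out each line.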

Additional observations from a re-analysis of the deposited data

Results flagged for a closer look

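In 11 of 129 groups of 7 values (the changes, the treated levels and the vehicle levels of the 43 genes), 1 line lay far from the others by Dixon's test at a critical value of 0.568. Chance gives about 1 in 20 for a single group. These groups share arrays and lines and are not independent, so the count is not a test. Explanations were not tested.

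Of these, 6 were low levels in HPB-ALL, on the log2 scale. UTP4 was at 8.17 with AS605240 (next line 9.15) and at 8.59 with vehicle (next line 9.48). NOB1 was at 7.9 with AS605240 (next line 9.08) and at 7.93 with vehicle (next line 8.79). FBL was at 11.46 with AS605240, where the next line was at 11.67, a gap that is small in size. TBL3 was at 6.2 with vehicle, where the next line was at 7.34.

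The other level was that of RIOK2, which was at 8.96 with AS605240 in Jurkat, above the next line at 8.04.

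In 4 genes the change of 1 line lay apart from the others. In ALL-SIL the change was -1.03 for NOL6 (next line -0.58) and -0.64 for UTP4 (next line -0.41). In Molt-4 it was -0.96 for NOP58 (next line -0.49). In CCRF-CEM it was -0.19 for UTP20, the smallest decrease, where the next line was at -0.46.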

How the results depend on the processing

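Of the 43 genes, 30 kept their direction and their side of the threshold in every alternative except the fit without the replicate block, among them 28 of the 38 lower genes. Leaving out each line in turn gave 34 to 38 genes lower, 0 higher, 7 to 11 past both thresholds and a median change of -0.395 to -0.341. Of all genes, 5.33% to 7.33% were lower in these fits. An offset of 4 gave 33 lower genes, where 4.85% of all genes were lower, and 12 past both thresholds. WDR75, UTP3, UTP11, NOP14 and DIMT1 no longer passed. These 5 also lost their call, with 1 fewer line in the fit, without Molt-4 (WDR75, UTP3, NOP14 and DIMT1, lowest adjusted p 0.0542), without ALL-SIL (WDR75, UTP3, UTP11 and NOP14, 0.0504), without Jurkat (WDR75, NOP14 and DIMT1, 0.0517), without TALL-1 (UTP11 and NOP14, 0.051), without P12-ICHIKAWA (WDR75, 0.052) or without HPB-ALL (NOP14, 0.0512). An offset of 64 left 4 genes past both thresholds, against 8, since a larger offset shrinks every fold. With no replicate block, limma called 0 of the 43 genes lower and 0 past both thresholds, where 0.0303% of all genes were lower. The lowest adjusted p of the 43 was then 0.0851, for LTV1. Quantile normalization and median centring each gave 38 lower genes and 11 past both thresholds, where 8.73% and 10.9% of all genes were lower, and FBL turned to 0.02 by quantiles. With the mean of all probe sets 37 genes were lower, where 6.31% of all genes were. PWP2 and RIOK2 no longer passed, and RRP12 turned to -0.2 and passed (adjusted p = 0.0186). With the brightest probe set not ending in _x_at or _s_at 33 genes were lower, where 6.21% of all genes were. TBL3 then passed, and UTP11, RCL1, DIMT1 and TSR1 did not. RIOK2 turned to 0.16, and WDR3 turned to 0.0023 by a probe set with a signal over 50 on 0 arrays. A filter on a signal over 50 gave 38 lower genes, where 17.5% of the genes tested were then lower. On the simulated data, where only brighter genes were changed, some decreases of 0.5 on the log2 scale were missed. Those data held fewer changed genes than were called here, so the share missed here is not known. In these data NOP14 passed at -0.21. Changes of genes near background are understated.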
